A study of Mus musculus with 16 samples.

Results

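The genes described here mark the nerve cells that make monoamines (dopamine, noradrenaline and serotonin) or acetylcholine. They are 9 named genes, Th, Ddc, Nr4a2, Pitx3, Slc18a2, Fev, Tph2, Phox2a and Chat, chosen by name from their known roles and matched by symbol in the platform annotation. Of the 9, 8 had at least 1 probe set (a group of short probes against 1 transcript), 14 probe sets in all, among the 18193 genes and 34945 single-gene probe sets measured. Fev, a transcription factor of serotonin neurons, was not analysed here. Where a gene had more than 1 probe set, the one with the highest mean over the 16 arrays represents it, and all others are given beside it.

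The arrays hold total RNA from mouse embryo heads at 3 stages of development, with 6 samples of embryonic day 9.5 (E9.5), 4 of E11.5 and 6 of E13.5. No strain, genotype, sex or treatment is given in the sources used here, nor whether a sample held 1 head or several, and the submitters call the samples of a stage biological replicates. The E9.5 and E11.5 RNA was labelled with an Affymetrix one-cycle kit and the E13.5 RNA with an Ambion amplification kit, so that in every comparison with E13.5 the stage and the kit cannot be told apart. The title prefixes B62 and B63 divide the E13.5 samples into 3 and 3, and what they stand for is not given.

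Values are intensities in linear units, normalized by the authors so that every array has a median of 32 and a lower quartile of 12 over all 45101 probe sets. They show a transcript relative to the others on its array, and in whole heads fewer cells of a type and less RNA per cell cannot be told apart. The summed intensity of 12 general neuron markers was 1148 to 2641 at E9.5, 9807 to 11270 at E11.5 and 17562 to 18745 at E13.5. Within E9.5 the samples 13 and 15 had the lowest sums, 1148 and 1235. The mean log2 intensity of the 3' probe sets of 4 added bacterial control transcripts was 8.92 ± 0.18 at E9.5, 6.80 ± 0.16 at E11.5 and 6.57 ± 0.15 at E13.5 (mean ± SD). In these controls E9.5 thus differed from E11.5 by more than E11.5 did from E13.5, although E9.5 and E11.5 share a kit. What made this difference was not tested, and in the comparison of E11.5 with E9.5 it cannot be told apart from stage.

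Tyrosine hydroxylase (Th) makes the dopamine precursor, aromatic amino acid decarboxylase (Ddc) turns the precursors into dopamine and serotonin, and the vesicular monoamine transporter (Slc18a2) loads all monoamines into vesicles. Tryptophan hydroxylase 2 (Tph2) begins serotonin synthesis in the brain, and choline acetyltransferase (Chat) makes acetylcholine. Nr4a2 and Pitx3 are transcription factors of midbrain dopamine neurons, and Phox2a is one of noradrenaline neurons and of the motor neurons of the eye muscles and viscera. Some of these genes are not used by such neurons alone: Pitx3 also acts in the lens and in skeletal muscle, Ddc in gut and kidney, and Slc18a2 in platelets and mast cells.

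Promoters were taken from RefSeq (build GRCm38.p6), 250 bases before and 50 after each annotated start. They are shown for Th, Slc18a2 and Ddc, because these 3 genes serve 1 pathway and moved differently by their brightest probe sets. The second probe set of Ddc went the other way from its brightest, as given below. All 9 genes matched, with 10 promoters, since Ddc has 2 annotated starts. Capitals mark the cyclic AMP response element TGACGTCA or the Nr4a element AAAGGTCA, the latter found on the reverse strand and so read as TGACCTTT.

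Th, chr7:142899946-142900245, minus strand: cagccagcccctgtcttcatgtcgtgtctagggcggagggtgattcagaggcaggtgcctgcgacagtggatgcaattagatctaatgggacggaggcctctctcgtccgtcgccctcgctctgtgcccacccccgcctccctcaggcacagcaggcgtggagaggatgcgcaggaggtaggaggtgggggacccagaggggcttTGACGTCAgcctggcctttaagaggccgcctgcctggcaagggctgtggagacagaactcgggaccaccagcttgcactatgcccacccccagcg

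Slc18a2, chr19:59260628-59260927, plus strand: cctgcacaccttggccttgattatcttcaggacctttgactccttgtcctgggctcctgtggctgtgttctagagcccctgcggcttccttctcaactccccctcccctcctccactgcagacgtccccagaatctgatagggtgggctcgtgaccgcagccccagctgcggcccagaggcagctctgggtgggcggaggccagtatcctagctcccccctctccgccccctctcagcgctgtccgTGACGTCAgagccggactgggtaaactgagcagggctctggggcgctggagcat

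Ddc, upstream start, chr11:11898095-11898394, minus strand: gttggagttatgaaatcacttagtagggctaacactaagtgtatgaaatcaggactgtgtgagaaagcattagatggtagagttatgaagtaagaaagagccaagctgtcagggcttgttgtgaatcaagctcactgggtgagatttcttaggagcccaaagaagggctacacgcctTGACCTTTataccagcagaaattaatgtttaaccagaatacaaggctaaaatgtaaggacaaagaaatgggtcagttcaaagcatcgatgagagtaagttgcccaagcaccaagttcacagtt

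Ddc, downstream start, chr11:11890359-11890658, minus strand: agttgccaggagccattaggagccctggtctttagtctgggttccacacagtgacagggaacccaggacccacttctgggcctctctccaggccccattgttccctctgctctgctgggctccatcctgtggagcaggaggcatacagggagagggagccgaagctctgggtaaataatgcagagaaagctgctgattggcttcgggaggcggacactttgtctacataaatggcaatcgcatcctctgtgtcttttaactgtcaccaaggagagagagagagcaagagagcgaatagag

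The element TGACGTCA began 45 bases before the start of Th and 4 bases before that of Slc18a2, and 1.79% of all 32851 promoters of this length held it. AAAGGTCA began 73 bases before the upstream start of Ddc and was present in 1.51% of all promoters. Both strands were searched for 5 motifs, and TAATCC and TAATTA share their first 4 letters. The others were TAATCC, in 0 of the 10 promoters and 7.06% of all, TAATTA, in that of Fev and 5.29% of all, and CCGGAAG, in that of Chat and 8.86% of all. A match is a stretch of letters and was not tested as a binding site.

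Between E9.5 and E11.5, 5 of the 8 measured genes passed the test (limma, adjusted p under 0.05 over all genes), with Nr4a2, Slc18a2 and Th higher and Ddc and Phox2a lower. The same test called 57.8% of all 18193 genes in that comparison, 31% higher and 26.9% lower. From E11.5 to E13.5, 5 of 8 passed again, Ddc, Th and Pitx3 higher and Slc18a2 and Nr4a2 lower, against a background of 54.9%, with 27.9% higher and 27% lower. Over the whole span from E9.5 to E13.5, Th, Nr4a2, Pitx3 and Tph2 were higher and Phox2a lower, where 61.8% of genes passed, 32.7% higher and 29.1% lower. The members were called about as often as genes at large. The median log2 difference of the 8 genes was -0.0057, 0.17 and 0.16 in the 3 comparisons, beside 0.019, 7.7e-05 and 0.0068 for all genes. In the first step 2 of the 8 genes were called and at least 2-fold higher and 0 lower, beside 6.08% and 4.79% of all genes, in the second 0 were higher and 1 lower, beside 5.78% and 3.8%, and over the span 1 was higher and 0 lower, beside 9.93% and 7.08%. Over the 3 stages together, the F test called 6 of the 8 genes and 75.8% of all genes.

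**Figure D1:**
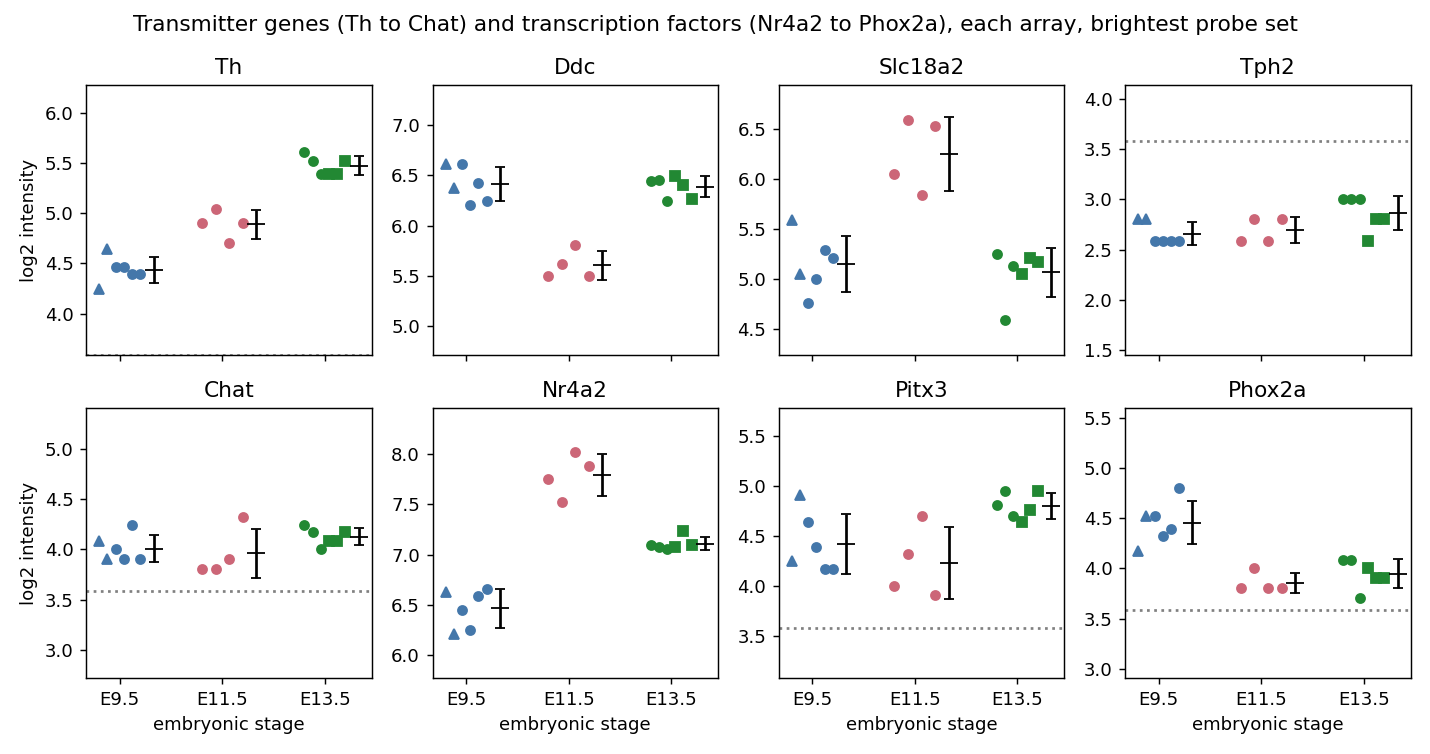
Intensity of each of the 8 measured genes on every array (log2 scale, the same span in each panel), by stage, with the mean ± SD as a black bar. Triangles are E9.5 samples 13 and 15, squares are E13.5 samples of prefix B63, circles are all other samples, and the dotted line is the lower quartile of an array, an intensity of 12. Th rises at each stage, Nr4a2 and Slc18a2 are highest at E11.5, and Ddc is lowest there.

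Th, the first enzyme of dopamine and noradrenaline synthesis, rose at each step. Its intensity was 19 to 25 at E9.5 with a median of 21.5, was 30, 33, 26 and 30 in the E11.5 samples 33, 36, 51 and 52, and was 42 to 49 at E13.5 with a median of 44. No array of one stage reached into the range of another. The log2 difference was 0.46 ± 0.09 (SE) from E9.5 to E11.5 (limma adjusted p = 0.000137) and 0.58 ± 0.09 from E11.5 to E13.5 (adjusted p = 9.11e-06). The 2 steps did not differ beyond their error (change of slope 0.13, adjusted p = 0.515), though only the second crosses labelling kits. Over the whole span Th was 2.06-fold higher (log2 1.04 ± 0.08, adjusted p = 2.26e-10). Markers of sympathetic and adrenal cells, which also make Th, mostly moved with it by their brightest probe sets. Of 9, 8 were measured. In the first step 7 rose and 0 fell, in the second 7 rose and 1, Pnmt, fell, and over the span all 8 rose. Over the span Dbh had 1 of 3 probe sets called higher and 1 lower, and Hand2 1 of 3 higher and 2 lower. The summed intensity of the 8 was 296 to 389, then 552 to 765, then 893 to 1053. The part of these cells in the rise of Th was not tested.

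Ddc, the next enzyme of the pathway, took the opposite course at E11.5. By its brighter probe set, 1426215_at, it read 74 to 98 at E9.5 (median 84.5), 45, 49, 56 and 45 at E11.5, and 76 to 90 at E13.5 (median 86). The 4 E11.5 arrays lay below all others, while E9.5 and E13.5 overlapped. It was 1.76-fold lower at E11.5 than at E9.5 (log2 -0.81 ± 0.10, limma adjusted p = 4.45e-07) and 1.72-fold higher at E13.5 than at E11.5 (log2 0.78 ± 0.10, adjusted p = 7.73e-07). The difference between E13.5 and E9.5 was -0.03, with a 95% confidence interval from -0.21 to 0.15 (adjusted p = 0.797).

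The second probe set of Ddc, 1430591_at, went the other way in both steps. It read 10 to 13 at E9.5 with a median of 12, then 19, 17, 23 and 18 at E11.5, then 11 to 13 at E13.5 with a median of 12.5. Its E11.5 arrays were above all others, and its E9.5 and E13.5 arrays lay around the lower quartile of an array. Adjusted over all probe sets, its log2 differences were 0.72 ± 0.10 (limma adjusted p = 2.12e-06) and -0.64 ± 0.10 (adjusted p = 9.73e-06). The direction of Ddc at E11.5 is therefore that of the probe set chosen, and the mean of both gave -0.05 (adjusted p = 0.653). Of all 4695 genes with 2 probe sets, 10.2% had them called in opposite directions in each of these steps, or 30.4% and 31.1% of the genes in which both were called. Which transcript of Ddc, or which of the 2 starts above, each probe set reads was not tested.

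Tph2 and Chat stayed dim. Tph2 lay at an intensity of 6 or 7 at E9.5 and E11.5 and at 6 to 8 at E13.5, below the lower quartile of the arrays throughout and within 4 units of the smallest value in the table, 4. On that scale 1 unit is a large step on the log2 axis. Its difference between E13.5 and E9.5 passed the test narrowly (log2 0.21 ± 0.08, limma adjusted p = 0.0392) and lost the call without any 1 of the 4 E9.5 samples 16, 19, 22 and 24, or any 1 of the 3 B62 samples, at adjusted p from 0.0729 to 0.0916. All 3 B62 samples read 8, and the B63 samples 6 or 7.

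Chat read 15 to 19 at E9.5 (median 15.5), 14, 14, 15 and 20 at E11.5 and 16 to 19 at E13.5 (median 17.5). The stages overlapped, and no step passed the test. The 95% confidence intervals were -0.26 to 0.16 for the first step, -0.04 to 0.38 for the second and -0.07 to 0.31 over the span. Without E11.5 sample 52, the highest at 20, the second step was 0.29 and passed (adjusted p = 0.0113).

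Slc18a2, which fills vesicles with monoamines, peaked at E11.5. Its intensity was 27 to 48 at E9.5 (median 35), 66, 96, 57 and 92 at E11.5, and 24 to 38 at E13.5 (median 35.5). Every E11.5 array lay above every array of the other stages, which overlapped each other. The gene was 2.14-fold higher at E11.5 than at E9.5 (log2 1.10 ± 0.16, limma adjusted p = 8.55e-06) and 2.27-fold lower at E13.5 (log2 -1.18 ± 0.16, adjusted p = 3.81e-06). The E13.5 level differed from the E9.5 level by -0.08 with a 95% confidence interval from -0.39 to 0.22.

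As a sum, platelet and mast cell markers were also highest at E11.5, but not each of them was. All 10 were measured, and their summed intensity was 387 to 483 at E9.5, 681 to 713 at E11.5 and 496 to 573 at E13.5. In the first step 5 of the 10 rose (8 without E9.5 samples 13 and 15) and 0 fell, among them the platelet chemokines Ppbp (mean intensity 15.1 to 129) and Pf4 (107 to 220). In the second step 2 rose and 4 fell, Ppbp to 29.6. For Slc18a2 the E9.5 samples 13, 15, 16, 19, 22 and 24 read 48, 33, 27, 32, 39 and 37. Their marker sums were 387, 462, 466, 483, 437 and 448. The E11.5 samples 33, 36, 51 and 52, at 66, 96, 57 and 92, had sums of 681, 698, 699 and 713. The part of these cells in the Slc18a2 peak was not tested.

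**Figure D2:**
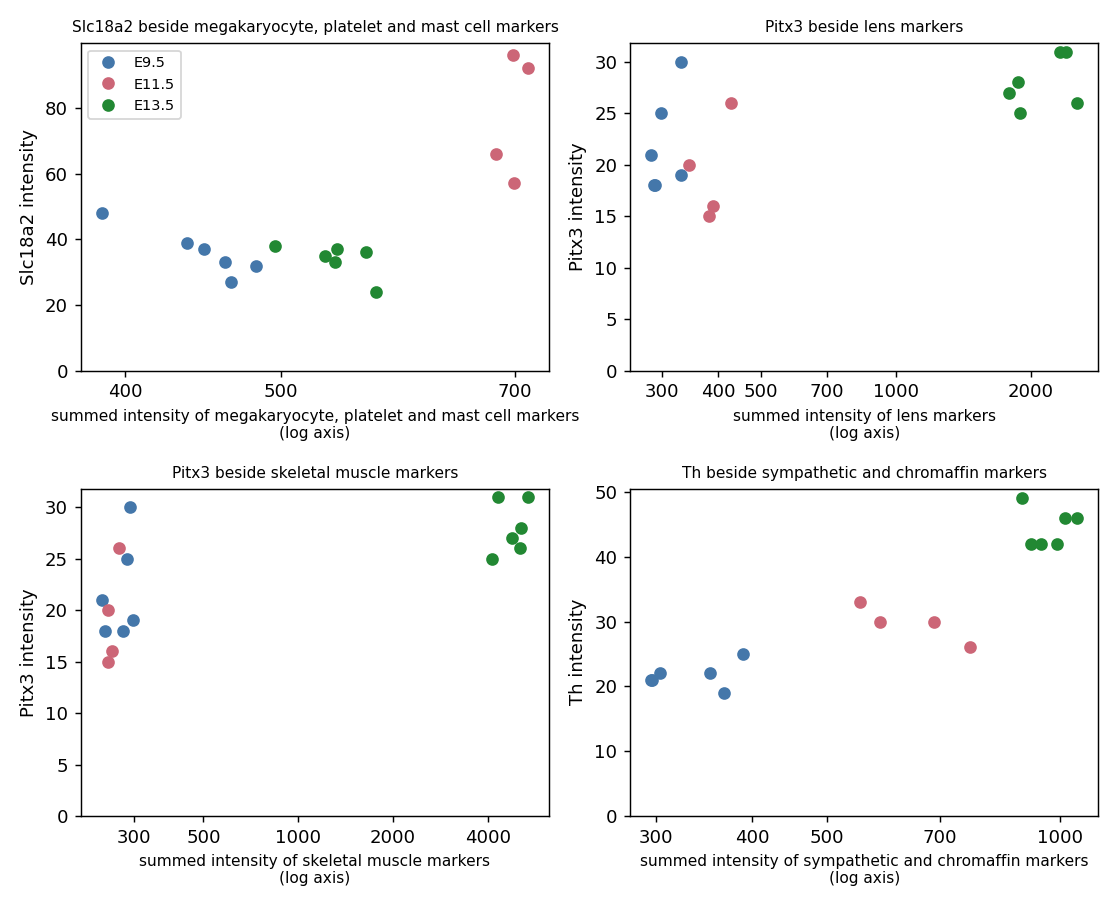
Intensity of Slc18a2, Pitx3 and Th on each array (vertical axis) against the summed intensity of a marker list of other cells that use the gene (horizontal axis, log scale), coloured by stage. The Slc18a2 panel has the 4 E11.5 arrays apart at marker sums of 681 to 713, and in the Pitx3 panels the E13.5 arrays stand apart on the marker axis and overlap the other stages on the gene axis.

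Nr4a2, a transcription factor that midbrain dopamine neurons need, was the member with the most probe sets, 6. The brightest, 1455034_at, read 74 to 101 at E9.5 (median 91.5), 216, 184, 260 and 236 at E11.5, and 133 to 151 at E13.5 (median 136). The stages did not overlap. By this probe set Nr4a2 was 2.52-fold higher at E11.5 than at E9.5 (log2 1.33 ± 0.10, limma adjusted p = 1.35e-09) and then 1.61-fold lower at E13.5 (log2 -0.69 ± 0.10, adjusted p = 1.16e-05), still above E9.5 (0.65 ± 0.09, adjusted p = 3.99e-06).

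Of the other 5 probe sets of Nr4a2, 2 shared this rise and fall and 3 did not. The second-brightest, 1447863_s_at, read 48 to 87 at E9.5, 34, 35, 44 and 37 at E11.5 and 157 to 174 at E13.5, lowest where the brightest was highest, with log2 differences of -0.90 ± 0.14 and 2.14 ± 0.14 (limma, adjusted p = 1.75e-05 and 9.98e-11 over all probe sets). Probe set 1433422_at followed the brightest in both steps, with 30 to 49, then 72, 84, 112 and 109, then 35 to 40, while 1433423_at rose from 33 to 49 to values of 57, 49, 51 and 58 and fell to 23 to 34. Probe set 1450750_a_at read 50 to 76, then 41, 56, 65 and 71, then 84 to 111, and 1450749_a_at 34 to 43, then 31, 34, 36 and 40, then 39 to 47, both called higher in the second step and in neither direction in the first. Of the 6, 3 rose and 1 fell in the first step, 3 rose and 3 fell in the second, and 3 rose and 1 fell over the span. Among the 856 genes with 5 or more probe sets, 51.4% had probe sets called both ways in the first step, 54.2% in the second and 45.3% over the span.

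Nr4a2 is also an immediate early gene in many cells, switched on within a short time of a stimulus. The summed intensity of 12 other immediate early genes was 1020 to 1137 at E9.5, 1311 to 1436 at E11.5 and 1028 to 1121 at E13.5. Dusp1 and Ier2, the brightest of them, weigh most in this sum. Dusp1 rose from a mean of 256 to 504 in the first step, and Ier2 fell from 380 to 230 in the second. The median log2 differences of the 12 were 0.10 and -0.12. In the first step 5 rose and 2 fell, and in the second 2 rose and 5 fell (3 without E11.5 sample 33 or 36). Nr4a3, a close relative of Nr4a2, rose by 0.79 ± 0.18 on the log2 scale (limma adjusted p = 0.000732) and then fell by 0.85 (SE 0.18, adjusted p = 0.000384). Fos and Egr1 instead rose in both steps, Fos by 0.55 and 0.62 and Egr1 by 0.71 and 0.53. Nr4a1, another relative, chosen after its values were seen, passed in no comparison. The part of such induction in the level of Nr4a2 was not tested.

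**Figure D3:**
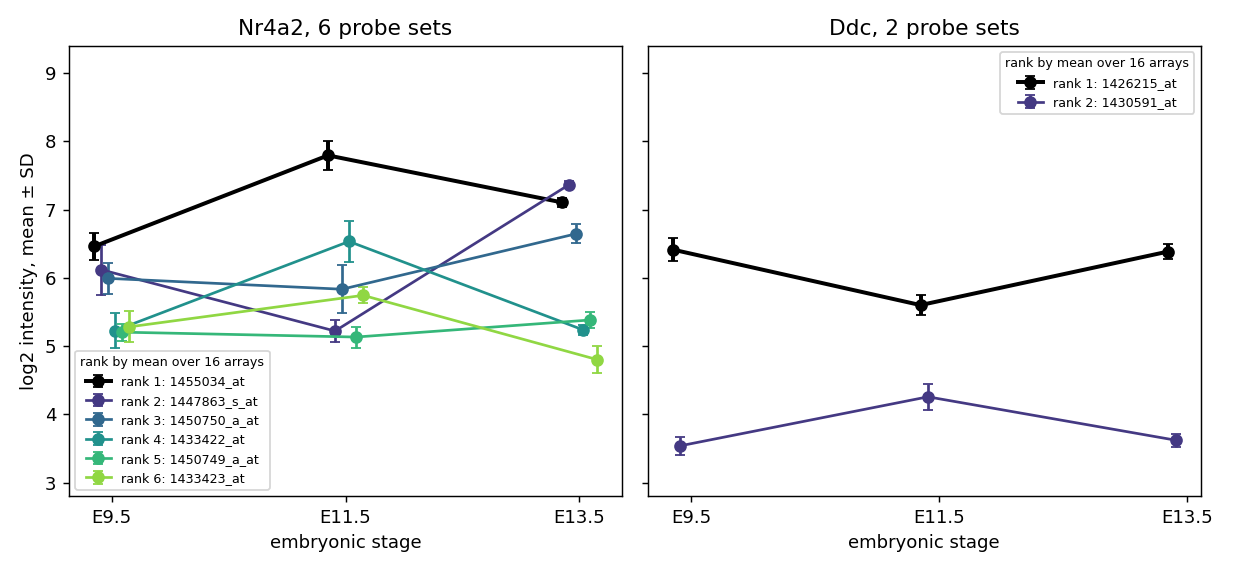
Mean ± SD of log2 intensity per stage for the 6 probe sets of Nr4a2 and the 2 of Ddc, with the brightest of each gene in black. For Nr4a2, 3 probe sets are highest at E11.5 and 3 at E13.5, and the 2 probe sets of Ddc move in opposite directions in both steps.

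Pitx3, which acts with Nr4a2 in midbrain dopamine neurons, read 18 to 30 at E9.5 (median 20), 16, 20, 26 and 15 at E11.5 and 25 to 31 at E13.5 (median 27.5). All stages overlapped. The first step did not pass the test (log2 -0.19, 95% confidence interval -0.51 to 0.13), and the second was a rise of 0.57 ± 0.15 (limma adjusted p = 0.00322). The gain over the span, 0.38 ± 0.14 (adjusted p = 0.0193), missed the threshold without E9.5 sample 22 or 24 (adjusted p = 0.0501 and 0.0511), without either E13.5 prefix, and with the prefix as a random block (0.089). Lens markers, all 12 measured, summed to 284 to 331, then 345 to 429, then 1789 to 2537, and muscle markers to 238 to 298, then 249 to 269, then 4128 to 5373. In the second step 7 of 12 lens markers rose and 2 fell, and 10 of 12 muscle markers rose and 0 fell. The largest rise of each list was that of the lens protein gene Cryba1, from a mean of 22.0 to 560, and of the cardiac actin gene Actc1, from 45.6 to 2302. The part of lens and muscle in the Pitx3 rise was not tested.

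Phox2a fell once and stayed low. It read 18 to 28 at E9.5 (median 22), 14, 16, 14 and 14 at E11.5 and 13 to 17 at E13.5 (median 15.5), with every E9.5 array above every later one. The first step was -0.60 ± 0.11 (limma adjusted p = 6.65e-05) and the whole span -0.51 ± 0.10 (adjusted p = 9.56e-05), while the second step was 0.09 with a 95% confidence interval from -0.13 to 0.32. Markers of the cranial sensory ganglia, some of which express Phox2a as they form, were measured for 9 of 12 genes, of which 1 rose and 1 fell in the first step. Ntrk2 rose there from a mean of 97.7 to 261, with 4 of its 8 probe sets called higher and 1 lower. Eya2 fell there from 48.5 to 26.3. In the second step 4 rose and 2 fell, and over the span 4 rose and 3 fell, Neurog1 from 248 to 51.4. The summed intensity of the 9 was 617 to 715, then 732 to 881, then 717 to 816. This sum does not show the course of each marker. The part of these cells in the fall of Phox2a was not tested.

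Groups whose arrays did not overlap were found for 5 of the 8 genes in the first step, 4 in the second and 3 over the span, beside 37.7%, 43% and 44.8% of all genes. The change of slope (the second step minus the first) was called for Ddc, Nr4a2, Slc18a2, Phox2a and Pitx3, 5 of 8 beside 53.2% of all genes. It was 1.60 for Ddc, -2.02 for Nr4a2, -2.28 for Slc18a2, 0.69 for Phox2a and 0.76 for Pitx3. Only the second step crosses labelling kits, so the change of slope contains the kit difference as well.

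Ratios within an array show whether the genes of a pair moved unequally. The 5 pairs were chosen by their roles, but with earlier results of these data known. For them 15 two-sided exact permutation tests were made, and 12 passed after Benjamini-Hochberg adjustment. The ratios use the same values as the tests of single genes above, so their passes are not separate evidence. The ratio of Th to Ddc rose by 1.27 on the log2 scale from E9.5 to E11.5 (exact p = 0.00476, the smallest that 6 against 4 arrays can give, adjusted p = 0.00649) and by 1.07 over the span, and its second step of -0.20 did not pass (exact p = 0.138). The ratio of Slc18a2 to Ddc rose by 1.91 and then fell by 1.97, both at that smallest exact p, which left -0.05 over the span (exact p = 0.71). For Nr4a2 to Pitx3 the steps were 1.52 and -1.26, again at the smallest exact p, and 0.26 over the span (exact p = 0.223). Th gained on Chat by 0.51 and 0.42, and both passed, the first no longer without E11.5 sample 33 or 36 (adjusted p = 0.0595 and 0.0744). Chat itself was dim and called in no comparison, so these passes largely follow the rise of Th. The ratio of Th to Tph2 rose by 0.42 and 0.41 and passed in all 3 comparisons. Tph2 stayed below the lower quartile of the arrays, so these 3 of the 12 follow the rise of Th and do not show how Tph2 moved. The ratios that hold Ddc or Nr4a2 rest on their brightest probe sets. With the second-brightest of each, an alternative chosen after seeing the data, Th to Ddc was -0.26 in the first step (exact p = 0.171) and 1.22 in the second, Slc18a2 to Ddc 0.38 and -0.55 (exact p = 0.181 and 0.0667), and Nr4a2 to Pitx3 -0.71 and 1.57 (exact p = 0.0381, adjusted p = 0.0519, and exact p = 0.00476). The steps of Th to Ddc and of Nr4a2 to Pitx3 thus turned round, and Th to Ddc over the span kept its direction and passed (0.96).

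The genes below were listed by their known roles. Of 12 measured enzymes of monoamine synthesis and breakdown other than the members, 3 rose and 4 fell in the first step, 6 rose and 2 fell in the second, and 4 rose and 1 fell over the span. Maob, which breaks down monoamines, fell by 1.62 in the first step (SE 0.20, limma adjusted p = 7.55e-07), and Spr, which makes the cofactor of Th and Tph2, fell by 0.96 (SE 0.14). Pnmt, which makes adrenaline, rose by 1.43 ± 0.16 and then fell by 0.88. Dbh, which makes noradrenaline from dopamine, rose by 0.86 ± 0.14 in the second step, although 1 of its 3 probe sets was called higher and 1 lower. The medians of this list were -0.17, 0.25 and 0.06, beside 0.019, 7.7e-05 and 0.0068 for all genes.

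Among 5 measured transporters of monoamines other than Slc18a2, 3 rose and 1 fell in the first step, 1 rose and 0 fell in the second, and 4 rose and 0 fell over the span. Slc29a4, a low-affinity monoamine transporter of the cell membrane, rose by 1.99 ± 0.12 in the first step (limma adjusted p = 2.12e-11). Slc18a1, the vesicular transporter of endocrine cells, rose by 1.36 ± 0.13 in that step, with 1 of its 3 probe sets called higher and 1 lower. Slc6a2, the noradrenaline transporter, fell by 0.46 (SE 0.11) and then rose by 0.94 ± 0.11. The dopamine transporter Slc6a3, chosen after its values were seen because it defines mature dopamine neurons, had mean log2 intensities of 3.53 ± 0.22, 3.85 ± 0.20 and 3.70 ± 0.07 (SD) near the lower quartile of the arrays. It was called higher in the first step, by 0.32 ± 0.11 (limma adjusted p = 0.016), and is 1 of the 3 transporters counted as rising there. The vesicular acetylcholine transporter Slc18a3, chosen in the same way, lay there too and passed in no comparison, at 3.46 ± 0.08, 3.46 ± 0.11 and 3.56 ± 0.09.

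Of 6 other genes of acetylcholine synthesis, loading, uptake and breakdown, 1 rose and 3 fell in the first step, 3 rose and 2 fell in the second, and 1 rose and 1 fell over the span. Bche, butyrylcholinesterase, fell by 0.91 (SE 0.16, limma adjusted p = 6.51e-05) and by 0.996 (SE 0.16), from a mean intensity of 72.7 to 38.7 to 19.4. Slc44a1, a choline transporter, fell by 0.56 and rose by 1.05. Of its 4 probe sets, 1 was called lower in the first step and 2 higher in the second. Among 12 measured acetylcholine receptor genes, 4 rose and 2 fell in the first step, with Chrnb2 up by 1.20 ± 0.12 and Chrna3 by 0.94 ± 0.20. In the second 1 rose and 3 fell (5 fell without E11.5 sample 36), and 3 rose and 3 fell over the span. Chrna3 had 1 of its 3 probe sets called higher in the first step and 0 lower. Of 18 measured dopamine, serotonin and adrenergic receptors, 13 passed in neither direction in the first step, 12 in the second and 15 over the span. Htr2c was called higher over the span by 1 of its 2 probe sets, from a mean intensity of 6.08, below the lower quartile, to 16.0. In the first step 4 of these 18 receptors rose, but 7 without E11.5 sample 36 and 2 without sample 33.

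The factors that direct the making of these neurons were listed by transmitter. Of 13 measured regulators of midbrain dopamine neurons, 4 rose and 7 fell in the first step, 1 rose (3 without E11.5 sample 33) and 7 fell in the second, and 4 rose and 8 fell over the span, with medians of -0.62, -0.41 and -0.55. En1, En2 and Foxa2, which specify the midbrain or its floor plate, were among those that fell. En1 fell by 1.68 in the first step (SE 0.10, limma adjusted p = 3.58e-11), to a mean intensity of 12.2, the lower quartile. En2 fell by 2.45 over the span (SE 0.11, from a mean of 510 to 93.6) and Foxa2 by 1.79 (SE 0.11, from 170 to 49.0). Neurog2, a proneural factor used in many parts of the nervous system, rose by 2.24 ± 0.11 in the first step.

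Regulators of serotonin neurons had 6 measured genes, of which 4 rose and 2 fell in the first step, 1 rose and 4 fell in the second, and 3 rose and 3 fell over the span. Gata2 and Gata3, which act in the making of these neurons and also in blood, rose in the first step by 1.97 ± 0.11 and 1.15 ± 0.10. Gata2 had 1 of its 2 probe sets called higher in that step and 0 lower. Nkx2-2 fell by 1.44 in the second step (SE 0.20). Of 8 measured regulators of noradrenaline and visceral motor neurons, 6 rose and 0 fell in the first step, 2 rose and 3 fell in the second, and 5 rose and 0 fell over the span, in which Phox2a fell. Hand2, a factor of sympathetic neurons and of facial mesenchyme, rose by 2.10 ± 0.12 in the second step by its brightest probe set, with 1 of its 3 probe sets called higher and 1 lower. Of 11 measured regulators of motor and forebrain cholinergic neurons, 4 rose and 2 fell, then 0 rose and 5 fell (3 without E11.5 sample 51), and 3 rose and 3 fell over the span. Lhx8, needed by forebrain cholinergic neurons, rose by 2.99 ± 0.27 in the first step (limma adjusted p = 1.25e-08), and Isl1, a motor neuron factor, by 1.89 ± 0.13. Chat did not pass in that step. Which cells of the head held Lhx8 or Isl1 was not tested.

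Beside the members stand the genes of neurons in general and of other transmitters. All 12 general neuron markers rose between E9.5 and E13.5, with medians of 2.51, 1.20 and 3.55 in the 3 comparisons. Of 5 measured genes of GABA and glutamate neurons, 4 rose and 0 fell in each comparison, with medians of 1.44, 0.66 and 1.90. Slc17a6, a vesicular glutamate transporter, rose by 4.25 ± 0.16 over the span (limma adjusted p = 3.07e-15) and Gad1, which makes GABA, by 4.03 ± 0.10 (adjusted p = 1.42e-17), where Th rose by 1.04. Without E9.5 samples 13 and 15, which had the lowest neuron marker sums, beside 1648 to 2641 in the others, no call of a member changed.

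**Figure D4:**
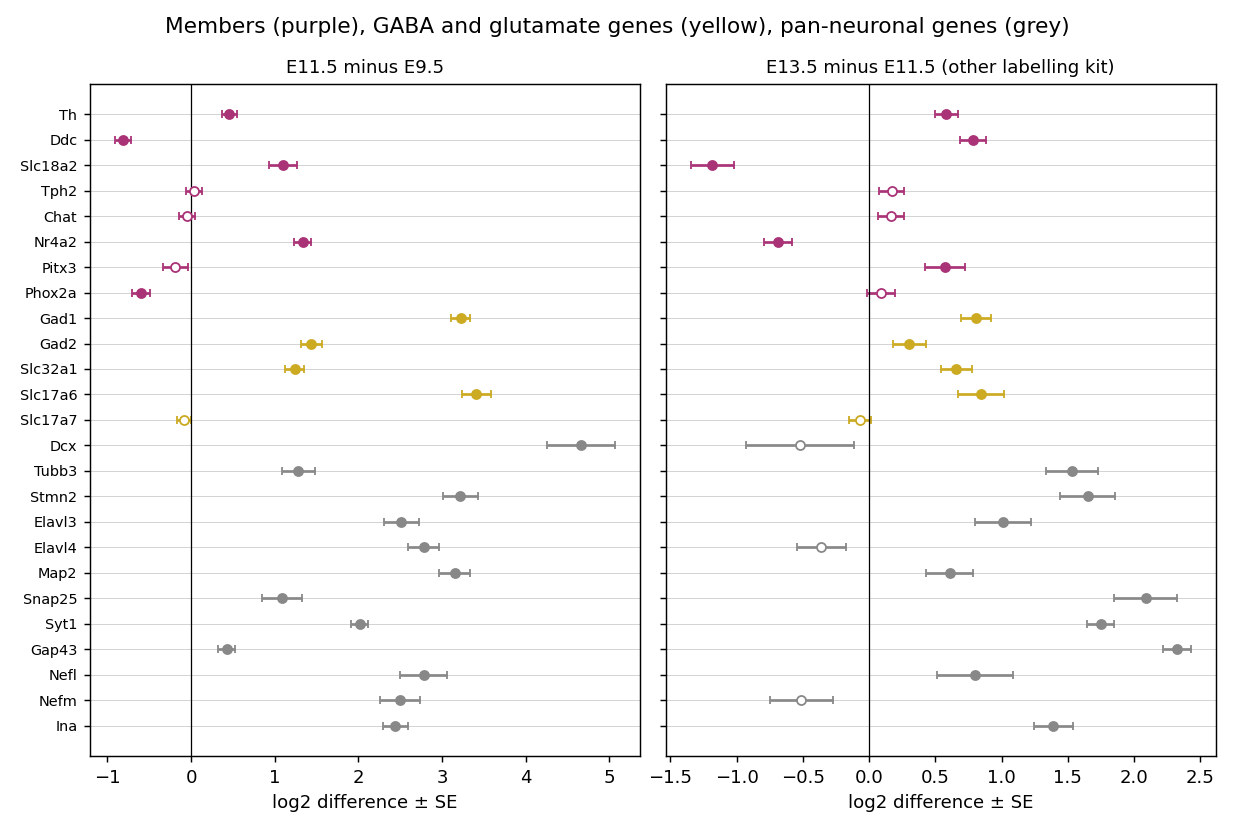
Log2 difference ± SE of the 8 measured members (purple), of GABA and glutamate genes (yellow) and of general neuron genes (grey) in the 2 steps. Each gene is shown by its brightest probe set, filled where the adjusted p is under 0.05. In the first step the members lie between -0.81 (Ddc) and 1.33 (Nr4a2) and the general neuron genes between 0.43 (Gap43) and 4.66 (Dcx), and in the second step the members lie between -1.18 (Slc18a2) and 0.78 (Ddc).

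For each member the genes with the most similar course were found by the root mean square distance between log2 values centred on their mean, over 16 arrays. For Th these were Adcy9 (0.10), Xkr4 (0.11) and Cacnb4 (0.12), for Ddc Tbca (0.12), Psmc2 (0.14) and Hspa2 (0.14), and for Nr4a2 Sox9 (0.12), Cdk17 (0.15) and Stox2 (0.17). For Slc18a2 they were Rnase2a (0.22), Frzb (0.23) and Atp7a (0.24), for Pitx3 Tmem120a (0.17), Fam217b (0.18) and Tmem63b (0.18), and for Phox2a Ascl3 (0.11), Tk1 (0.12) and Pald1 (0.13). Those of the dim genes Tph2 (Nat8f5, Olfm4 and Gpc5) and Chat (Tmc1, Timd4 and Atp13a5) had courses as flat as theirs. No gene of the lists above was among the 24, and no member was the nearest gene of another.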

How the data were processed

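The authors deposited linear probe set intensities as whole numbers. RMA made them, per the submitters' processing notes, with no version or settings given in the sources used here. Of 45101 probe sets, 64 controls were left out, 34945 name 1 gene, 932 name several and 9160 are unnamed here. Symbols were checked in a RefSeq table (GRCm38.p6): 0 changed and 204 were unmatched. Each of 18193 genes was represented by its brightest probe set.

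Log2 intensities of all 16 arrays, grouped by the stage in the sample titles, were fitted by lmFit, contrasts.fit and eBayes (limma 3.58.1, R 4.3.3). Benjamini-Hochberg adjustment ran over all genes, or over all probe sets for single probe sets, with calls at an adjusted p under 0.05. P-values measure the spread between these samples, which may be technical. Member ratios had exact permutation tests. The fit was tested on simulated data. The number of arrays limits the precision.

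The members, 16 gene lists and pairs were chosen with earlier results of these data known. Named are all members with all probe sets, up to 3 called genes with the largest difference per list and comparison (a part of them is printed, chosen after their values were seen), and the 3 nearest named genes per member. The alternatives were 2 other normalizations, an offset of 16, 3 other uses of the probe sets, leaving out the dimmest 25% of genes, the stages compared alone, 2 other variance models, the E13.5 prefix, and leaving out arrays. No column was unused (0) and 0 pairs of arrays were identical.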

Additional observations from a re-analysis of the deposited data

Results flagged for a closer look

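In 3 of the 42 stage groups of the 14 probe sets, 1 sample lay far from the others by Dixon's test on the log2 scale, whose gap is given as a share of the group's range; chance gives about 1 in 20. For Nr4a2 (1455034_at) the E13.5 sample B63E6K read 151 where the next highest read 137, a gap of 0.767 of the range. For Slc18a2 the E13.5 sample B62E7K read 24 where the next lowest read 33, a gap of 0.693. For Phox2a the E11.5 sample 36 read 16 and the other 3 all 14, so that the gap was the whole range, 1; at this intensity it is 2 units of rounded values.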

How the results depend on the processing

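Over 32 results of single members and 30 alternatives, 911 of 944 values kept their direction and their side of the threshold, 22 lost the call, 4 gained it and 7 turned round. All 7 came with another choice of probe sets. With the second-brightest probe set, Ddc was 0.72, -0.64 and -1.35 (first step, second step, change of slope) and Nr4a2 -0.90, 2.14 and 3.04. In the ratios, an alternative chosen after seeing the data, the same probe sets turned Th to Ddc to -0.26 and 1.22 and Nr4a2 to Pitx3 to -0.71 and 1.57. Averaging the probe sets of a gene, Nr4a2 was 0.047 in the second step, and 3 members in place of 5 were called both in the second step and for the change of slope. Over the span, 3 in place of 5 were called with the E13.5 prefix as a random block (consensus correlation 0.60) and with B63 alone, and 3 to 5 when single arrays were left out, with 3 without E9.5 sample 22 or 24; the genes lost were Pitx3 and Tph2. The change of slope of Pitx3 was not called without E11.5 sample 33 or 52 (adjusted p = 0.102 and 0.129) or with B63 alone. Of 1632 counts over the gene lists with 1 array left out, 49 moved beyond 1.5 times and 13 by 2 or 3 genes. Without the dimmest 25% of genes, Tph2 and Chat gave no value. Low intensities near 6 to 20, as for Tph2, Chat and Phox2a, limit what small differences can show. No paired analysis was possible because the stages share no replicate numbers.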
